A study of Mus musculus with 9 samples.

Results

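The accessible chromatin of 10 ETS transcription factor genes, Erg, Fli1, Ets1, Ets2, Elk3, Etv6, Elf1, Elf2, Elf4 and Gabpa, was described in mouse brain endothelial cells (ECs). Members were taken as every peak that the authors' annotation named for 1 of these genes, which gave 538 of the 253457 peaks of 9 libraries. Purified brain EC nuclei were profiled by Omni-ATAC-seq, in which Tn5 transposase inserts adapters into open chromatin, and each library has its own list of broad peaks on mm10 (GRCm38). Young WT Cre (n = 2) and old WT Cre (n = 2) mice carried the endothelial Cre driver labelled CdH5CRE and served as controls. Young EC-K4KO (n = 3) and old EC-K4KO (n = 2) mice, labelled ECK4KO, lacked Klf4 in ECs through the same driver acting on a floxed Klf4 gene. The methods of the study give the driver as the tamoxifen-inducible CDH5-CreERT2, which acts in ECs that express VE-cadherin. Ages are given in the labels as young and old only. The labels do not say whether replicates came from separate mice, so p-values measure the spread between these libraries.

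ETS factors share a winged helix DNA-binding domain that recognises a GGAA core. Erg and Fli1 are close relatives that maintain endothelial identity, and Ets1 and Ets2 are activators that respond to growth factor and kinase signals. Elk3 is a ternary complex factor that works with serum response factor and can repress. Etv6 is a repressor with a pointed domain, Elf1, Elf2 and Elf4 form a subfamily of activators, and Gabpa is a broadly used factor at housekeeping promoters. Many endothelial enhancers hold ETS sites, and several ETS genes are themselves controlled by enhancers in their introns and flanks.

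The lists held 6157 and 9598 peaks in young WT Cre, 23848 to 27992 in young EC-K4KO, 32555 and 43893 in old WT Cre, and 39079 and 45026 in old EC-K4KO. Read totals were not analysed here, so depth is unknown, and a gene with no peak in a short list was not shown to be closed. The library names begin with 1 of 2 prefixes and neither prefix holds both ages, so age and a difference between those sets of libraries cannot be told apart. Of 10 endothelial markers, 4 to 5 had a promoter peak in young WT Cre and 8 in both old EC-K4KO libraries. None of 8 microglial and leukocyte markers had one in any library. Of 6 pericyte and mural markers, 0 had a promoter peak in the young libraries, 0 to 1 in old WT Cre and 2 to 4 in old EC-K4KO. Of 5 astrocyte markers, 0 had a promoter peak in the young libraries, 0 to 1 in old WT Cre and 1 to 2 in old EC-K4KO, and of 6 oligodendrocyte and 6 neuron markers at most 1 had one in any library. The Klf4 promoter had 1 peak in every library, which does not show whether the gene was recombined.

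The ETS genes had 11 and 17 peaks in the young WT Cre libraries, then 31, 49 and 59 in young EC-K4KO. Old WT Cre libraries had 85 and 73, and old EC-K4KO libraries had 107 and 106. The groups did not overlap in this total. Nearly all of the gain was distal, that is, in peaks whose centre the authors classed as anything other than promoter-TSS. Distal peaks numbered 5 and 11 in young WT Cre, 23, 41 and 52 in young EC-K4KO, 77 and 65 in old WT Cre, and 99 and 98 in old EC-K4KO. Promoter peaks stayed between 6 and 8 in every library.

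The promoter share of ETS gene peaks was 44.9% ± 13.6 (SD, n = 2) in young WT Cre and 18% ± 7.12 (n = 3) in young EC-K4KO. It was 10.2% ± 1.09 (n = 2) in old WT Cre and 7.51% ± 0.0499 (n = 2) in old EC-K4KO. The promoter share of all peaks moved the same way, from 51.2% ± 6.0 in young WT Cre to 20.3% ± 1.67 in old EC-K4KO. Per 10000 peaks of a list, the ETS genes took 17.8 ± 0.109 peaks in young WT Cre, 17.8 ± 4.26 in young EC-K4KO and, at the old age, 20.9 ± 2.16 with WT Cre and 25.4 ± 2.38 with EC-K4KO. The young EC-K4KO libraries, at 13.0, 19.4 and 21.1, lay on both sides of the young WT Cre libraries, at 17.9 and 17.7.

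When every list was limited to its 6157 strongest peaks, the length of the shortest list, the ETS genes had 11 and 11 peaks in young WT Cre and 14, 11 and 10 in young EC-K4KO. They had 16 and 15 in old WT Cre and 15 and 18 in old EC-K4KO. Old libraries of both genotypes thus lay above all young libraries at equal length, whereas the genotypes overlapped at each age.

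**Figure D1:**
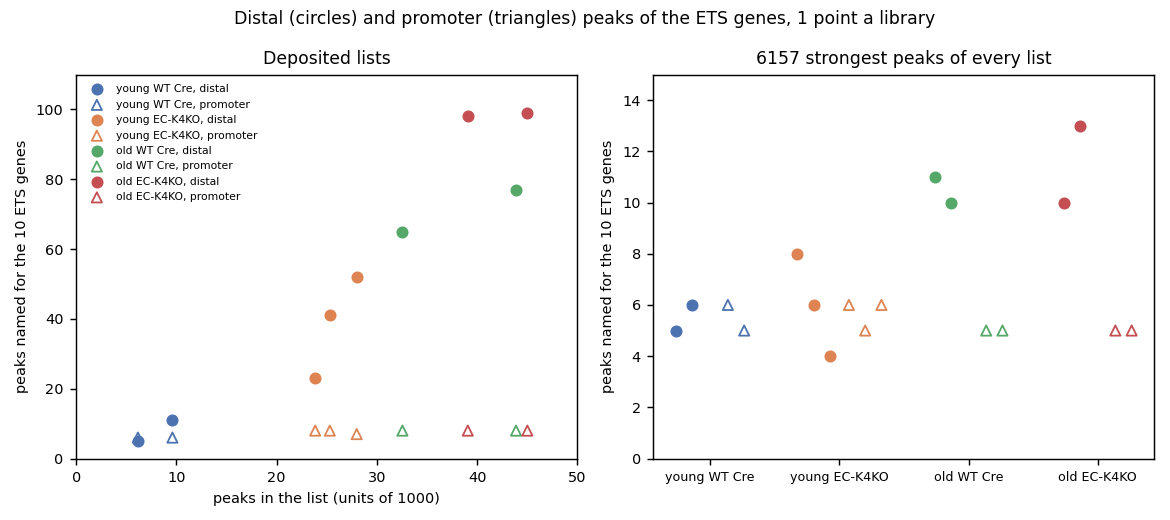
Peaks named for the 10 ETS genes, with distal peaks as filled circles and promoter peaks as open triangles, 1 point a library, coloured by group. The left panel plots the number against the length of the deposited list, on an axis in units of 1000 peaks, where distal peaks range from 5 to 99 and promoter peaks from 6 to 8. The right panel gives the same counts among the 6157 strongest peaks of every list.

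The sequences of the distal ETS regions open in all 9 libraries, which the later comparison of rank uses, are shown with those of the Erg, Elk3 and Fli1 promoter regions, in which an ETS motif was found outside annotated exons. They are read from the GRCm38 genome, 5′ to 3′ on the strand of the gene, with CAGGAAG or CCGGAAG or its reverse complement in capitals. A match describes the letters of the window and is not a bound site.
Erg intron 2, chr16:95439041-95439290, minus strand: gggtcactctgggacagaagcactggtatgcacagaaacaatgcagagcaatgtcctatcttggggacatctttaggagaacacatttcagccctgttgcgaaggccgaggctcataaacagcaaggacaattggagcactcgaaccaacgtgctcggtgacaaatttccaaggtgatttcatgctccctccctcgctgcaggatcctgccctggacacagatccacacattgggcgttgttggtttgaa
Etv6 intron 2, chr6:134151981-134152230, plus strand: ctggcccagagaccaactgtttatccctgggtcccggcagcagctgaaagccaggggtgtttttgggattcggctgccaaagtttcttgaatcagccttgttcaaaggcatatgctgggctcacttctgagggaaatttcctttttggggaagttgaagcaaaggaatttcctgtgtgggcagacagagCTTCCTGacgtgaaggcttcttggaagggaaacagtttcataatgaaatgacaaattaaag
Fli1 upstream, chr9:32561480-32561729, minus strand: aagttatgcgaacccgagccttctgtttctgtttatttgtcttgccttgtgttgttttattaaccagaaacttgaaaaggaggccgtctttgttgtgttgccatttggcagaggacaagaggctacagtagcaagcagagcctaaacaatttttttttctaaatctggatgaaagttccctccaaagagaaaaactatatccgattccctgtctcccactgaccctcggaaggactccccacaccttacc
Ets1 upstream, chr9:32672395-32672644, plus strand: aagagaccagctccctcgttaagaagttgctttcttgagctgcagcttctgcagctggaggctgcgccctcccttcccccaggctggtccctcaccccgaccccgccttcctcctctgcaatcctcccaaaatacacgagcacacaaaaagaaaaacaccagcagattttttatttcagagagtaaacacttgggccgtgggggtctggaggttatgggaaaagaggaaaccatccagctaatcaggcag
Erg internal promoter, chr16:95459352-95459501, minus strand: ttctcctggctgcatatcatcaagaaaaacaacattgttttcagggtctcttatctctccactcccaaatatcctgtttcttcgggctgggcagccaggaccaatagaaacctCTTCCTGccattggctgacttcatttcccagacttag
Elk3 promoter, chr10:93311136-93311285, minus strand: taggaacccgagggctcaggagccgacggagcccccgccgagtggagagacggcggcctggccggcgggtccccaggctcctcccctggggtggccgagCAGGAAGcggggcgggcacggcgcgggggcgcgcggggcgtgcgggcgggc
Fli1 promoter region, chr9:32541038-32541187, minus strand: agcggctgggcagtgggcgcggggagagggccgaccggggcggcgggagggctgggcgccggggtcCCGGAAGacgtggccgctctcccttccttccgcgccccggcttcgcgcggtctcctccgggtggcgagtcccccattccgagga

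The CCGGAAG of the Fli1 stretch lies in the region merged over all libraries, but not in the peak of every library. The peaks over the annotated start at 32541595 were 303 bp wide in young EC-K4KO 2 and 320 and 451 bp in old WT Cre. They are too narrow to reach the site. The stretch is centred 483 bp into the gene from that start. The Etv6 intron 2 stretch held 1 CAGGAAG and 1 AP-1 motif (TGANTCA), whereas the Erg intron 2 stretch, also compared in rank, held 0 of both. Over all regions, both strands of a window of 300 bases centred on the region were searched. CAGGAAG was found in 29 of 124 distal ETS gene regions (23.4%), against 17.7% of all distal regions, and CCGGAAG in 5 (4.03%), against 2.62%. The KLF motif CCACCC was found in 37 (29.8%), against 24.5%, and TGANTCA in 16 (12.9%), against 11.9%. Of the 8 promoter regions, 2 held CAGGAAG and 0 held CCGGAAG, against 12.5% and 18.1% of all promoter regions, and 2 held CCACCC, against 36.6%. The Fli1 match lies outside its 300-base window. These shares describe the regions, and no test was made.

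Erg lies at chr16:95359169-95586593 on the minus strand. It had a promoter peak in all 9 libraries, but at an internal start. A peak covered an annotated start at position 95459348 in 9 of 9 libraries, whereas the start that the authors' table uses, at 95530365 and 71017 bp further upstream, was covered in 0 of 9. The other upstream starts, at 95524603 and 95586593, were likewise covered in 0. The Erg promoter peak stood at place 3661 and 3402 in the young WT Cre lists, 5974, 4383 and 5273 in young EC-K4KO, 4281 and 3955 in old WT Cre, and 4057 and 2924 in old EC-K4KO, counted from the strongest. Its place thus stayed between 2924 and 5974 while the lists grew from 6157 to 45026 peaks.

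Erg peaks numbered 2 and 4 in young WT Cre, 4, 7 and 7 in young EC-K4KO, 13 and 7 in old WT Cre, and 12 and 13 in old EC-K4KO. A region in Erg intron 2, at chr16:95438754-95439596, was accessible in all 9 libraries. A second intron 2 region, at chr16:95448080-95449688, was found in 8 libraries and was missing from young WT Cre 1. A region in intron 3, at chr16:95403453-95404099, was present in each of the 7 libraries outside young WT Cre.

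Fli1, the neighbour of Ets1 on chromosome 9 (chr9:32422204-32542861, minus strand), had no promoter peak in young WT Cre and 1 in each of the other 7 libraries. Its peaks numbered 2 and 2, then 4, 12 and 10, then 12 and 12, and finally 16 and 14, with the young groups first and WT Cre before EC-K4KO at each age. Young EC-K4KO 1, at 4, stood apart from its replicates. The Fli1 peaks of young WT Cre were all upstream of the gene. A region upstream of the gene, at chr9:32561287-32562690 and -20151.5 bp from its start, was accessible in all 9 libraries.

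Ets1 (chr9:32636221-32757820, plus strand) held the most peaks of the family, 98 over the 9 libraries, more than 99.7% of the 20035 genes with a peak. Its counts were 2 and 4 in young WT Cre, 7, 9 and 13 in young EC-K4KO, 15 and 12 in old WT Cre, and 20 and 16 in old EC-K4KO. Its promoter had a peak in every library. A region far from the promoter, at chr9:32618664-32619135, at -77166.5 bp from the Ets1 start, ranked ahead of the Ets1 promoter in 7 of the 8 libraries that had it. It lies almost midway between the authors' starts of Fli1 (32541451) and Ets1 (32696041), and carries the name Ets1 because that start is slightly nearer. It stood in the top 11.7% of young WT Cre 2 and in the top 3.80% and 3.57% of the old EC-K4KO lists, and was missing from young WT Cre 1. Such a percent falls when weak peaks lengthen a list. These values and the percent ranks of the paragraphs below therefore do not show that a region became stronger.

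A region in Ets1 intron 1, at chr9:32715993-32716499, was absent from both young WT Cre lists and present in the other 7. Its percent rank, in which 0 marks the strongest peak of a list, was 19.3, 20.7 and 16.5 in young EC-K4KO, 9.12 and 6.88 in old WT Cre, and 4.98 and 6.86 in old EC-K4KO. It was the highest ranked ETS region gained by young EC-K4KO over young WT Cre, and likewise by old WT Cre over young WT Cre.

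Elk3 (chr10:93247414-93311135, minus strand) had 0 peaks in both young WT Cre libraries. It had 3, 8 and 10 in young EC-K4KO, 14 and 12 in old WT Cre, and 16 and 15 in old EC-K4KO. Its promoter region, at chr10:93310216-93311777, and a region in intron 2, at chr10:93275766-93276780, were each present in each of the 7 libraries outside young WT Cre. The intron 2 region ranked at 23, 19.4 and 23.6 in young EC-K4KO, and from 8.70 to 12.7 in the old libraries.

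Etv6 (chr6:134035700-134270158, plus strand) had 2 and 3 peaks in young WT Cre, 5, 4 and 7 in young EC-K4KO, 12 and 10 in old WT Cre, and 21 and 20 in old EC-K4KO. All 4 groups were apart, and the old EC-K4KO counts were the largest of any member. Intron 2 held a region present in all 9 libraries, at chr6:134151788-134152493. Of the 12 distal regions that were found in both old EC-K4KO libraries and no other, 5 were named for Etv6. Etv6 had 29 regions in all, more than any other member.

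Ets2 (chr16:95702075-95721051, plus strand) had a promoter peak in every library. Its peaks numbered 1 and 1, then 2, 2 and 2, then 6 and 8, then 7 and 12 in the same group order. The second Ets2 region of young EC-K4KO was in intron 2, at chr16:95709108-95709779, and was present in each of the 7 libraries outside young WT Cre. Peaks added in old libraries lay mostly outside the gene, since the gene body and the 1000 bp before it held 2 peaks in each of the 7.

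Gabpa (chr16:84834925-84863779, plus strand) had a promoter peak in every library, at place 1995 to 3688 of the lists, and 1 to 5 peaks per library. This peak also covers the region before Atp5j, a mitochondrial ATP synthase subunit gene that starts on the other strand, and the authors' class names Atp5j. A second Gabpa region, at chr16:84824649-84825378, was found in 8 libraries and lay in exon 10 of Jam2, which encodes an endothelial junction protein. It carries the name Gabpa only because the Gabpa start is nearest. The other distal regions named for Gabpa lay in introns of Jam2. The Gabpa gene body and the 1000 bp before it held 1 peak in every library.

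Elf2 (chr3:51252720-51340663, minus strand) had a promoter peak in every library and 1, 1, 2, 3, 5, 5, 5, 6 and 8 peaks in the same library order. Elf4 (chrX:48411046-48463132, minus strand) had 0 peaks in young WT Cre, 2 in each young EC-K4KO, 3 in each old WT Cre and 4 in each old EC-K4KO library. A peak was classed as Elf4 promoter only in young EC-K4KO 1, and other peaks near the start were classed as intronic. The most frequent Elf4 region lay at the far end of the gene, at chrX:48409922-48410529, in 7 libraries.

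Elf1 (chr14:79481194-79582494, plus strand) had only 1 peak under its own name, in old WT Cre 1. This does not mean that its promoter was closed. A peak covered the annotated Elf1 start in 9 of 9 libraries, and all of these peaks were named for Wbp4, whose start on the opposite strand lies 73 bp away in the authors' table. The shared peak ranked at 72.7 and 39.9 in young WT Cre and from 14.5 to 22.9 in the other 7 libraries. These are percents of lists of unlike length, so they do not show a stronger peak. Within the Elf1 gene body and the 1000 bp before it, there were 1 and 1 peaks in young WT Cre, 2, 6 and 6 in young EC-K4KO, 7 and 6 in old WT Cre, and 10 and 9 in old EC-K4KO.

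**Figure D2:**
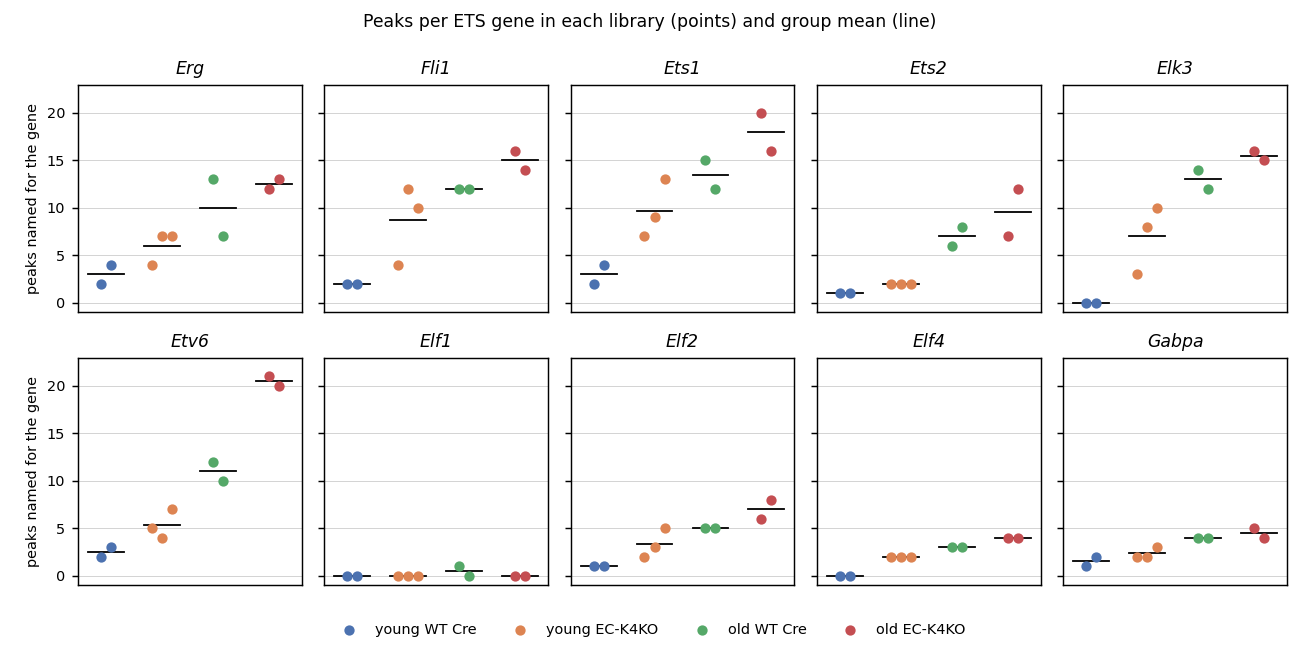
Number of peaks named for each of the 10 ETS genes, 1 point a library, with the group mean as a line and young groups to the left of old and WT Cre to the left of EC-K4KO at each age. Elk3 rises from 0 in both young WT Cre libraries to 16 and 15 in old EC-K4KO, and Elf1 stays at 0 or 1 because its peaks carry another name.

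Young EC-K4KO was compared with young WT Cre to ask which ETS genes gained accessible regions after loss of Klf4. A gene was counted as higher when all libraries of 1 group exceeded all of the other. Fli1, Ets1, Ets2, Elk3, Etv6, Elf2 and Elf4 were higher, 7 of 10, and 0 were lower. Among all 20035 genes, 23.9% were higher. The median ETS gene gained 2.58 peaks, against 0.667 for all genes. Over the 9 libraries the median gene had 9 peaks, whereas members other than Elf1 had from 20 (Elf4) to 98 (Ets1). The background of all genes is thus not matched to the ETS genes in number of peaks, here and in the later contrasts. The part of this in the gaps was not tested. In lists of equal length 0 ETS genes were higher, beside 1.46% of all genes. Scaled to list length, 2 were higher (Elk3 and Elf4) and 4 were lower (Erg, Ets2, Etv6 and Gabpa), beside 16.6% and 16.4% of all genes.

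Old EC-K4KO was compared with old WT Cre for the same question at the later age. Fli1, Ets1, Elk3, Etv6, Elf2 and Elf4 were higher, 6 of 10, and 0 were lower, beside 12.6% of all genes. The median ETS gene gained 2.5 peaks and the median gene 0. Scaled to list length, 2 were higher (Ets1 and Etv6) and 0 lower, beside 12.5% and 10.4% of all genes. In lists of equal length 0 ETS genes were higher, beside 1.05% of all genes. Pericyte and mural markers had 17 and 12 peaks in the old EC-K4KO libraries and 3 and 7 in those of old WT Cre, and astrocyte markers had 30 and 31 against 22 and 18. Endothelial markers were higher too, with 125 and 112 against 109 and 88. The other lists overlapped. Neuron markers had 12 and 8 against 12 and 5, oligodendrocyte markers 8 and 3 against 5 and 2, and microglial and leukocyte markers 5 and 3 against 6 and 1. At the young age astrocyte markers had 7, 9 and 13 peaks in EC-K4KO and 0 and 4 in WT Cre, and endothelial markers had 46, 57 and 77 against 19 and 20. Neuron, oligodendrocyte, and microglial and leukocyte markers were also higher there without overlap, whereas pericyte and mural markers overlapped. The methods of the study describe flow-sorted live brain ECs, and the part of other cells in the ETS counts was not tested. In these bulk nuclei, more cells of a type and more accessibility per cell cannot be told apart.

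Old WT Cre was compared with young WT Cre to follow age without the knockout. All members other than Elf1 were higher, 9 of 10, beside 49.1% of all genes. The added peaks named for Gabpa lay in Jam2. Scaled to list length, 2 were higher (Elk3 and Elf4) and 3 were lower (Erg, Etv6 and Gabpa), beside 32.8% and 18.2% of all genes. In lists of equal length, Ets1, Ets2 and Elk3 were higher, 3 of 10, beside 3.45% of all genes. Ets1 had 2 and 3 peaks among the strongest of young WT Cre and 4 and 4 in old WT Cre. Elk3 had 0 and 0 against 2 and 1, and Ets2 had 1 and 1 against 2 and 2.

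Old EC-K4KO was compared with young EC-K4KO to follow age within the knockout. All members other than Elf1 were again higher, 9 of 10, beside 25.2% of all genes, and the added Gabpa peaks again lay in Jam2. Scaled to list length, 3 were higher (Ets2, Etv6 and Elf4) and 0 lower, beside 17.1% and 21.6% of all genes. At equal list length only Fli1 was higher, with 2 and 3 peaks against 1, 1 and 0, beside 1.83% of all genes. The comparisons share groups and are not independent of each other.

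Genotype within age and age within genotype were then tested per gene with an exact permutation test, two-sided, with 60 arrangements and no p below 0.0167. For genotype, Elf4 reached p = 0.0167 by the exact permutation test, with 1.5 more peaks in EC-K4KO. Fli1, Ets1, Etv6 and Elf2 reached an exact permutation p of 0.0333, with 4.83, 5.58, 6.17 and 2.17 more peaks. These 5 of 10 stand beside 5.11% of all genes. For age, 9 of 10 members passed p below 0.05 by the exact permutation test, beside 20.3% of all genes. These tests use counts from lists of unlike length. In lists of equal length, 0 members passed the same unadjusted limit for either factor, beside 31 of all genes for genotype and 212 for age. The largest gains with age were 11.8 peaks in Etv6 and 10.8 in Elk3. After adjustment over all genes 0 passed for either factor, with an adjusted exact permutation p of at least 0.543 for genotype and 0.104 for age. At unadjusted p below 0.05 the counts were 1024 and 4063 of all genes. With no p below 0.0167, an adjusted p below 0.05 would need more genes at that floor than either count. The 0 therefore says little about single genes.

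Peaks that share at least 1 bp were merged across libraries into 92495 regions, of which 132 were named for the ETS genes, 8 promoter and 124 distal. Of the promoter regions, 6 (75%) were present in all 9 libraries, against 32.05% of all promoter regions. The other 2 (25%), those of Fli1 and Elk3, were present in the 7 libraries outside young WT Cre, against 15.3%. Of the distal regions, 4 (3.23%) were present in all 9 libraries, against 2.18% of all distal regions, and 9 (7.26%) in each of the 7 libraries outside young WT Cre, against 2.62%. A further 10 (8.06%) were present in all 4 old libraries and no young library, against 3.98%, and 12 (9.68%) in both old EC-K4KO libraries and no other, against 4.14%. No ETS region was present in all 5 EC-K4KO libraries and absent from WT Cre, a pattern of 0.0205% of all distal regions. ETS gene regions were seen in only 1 library in 23.5% of cases, against 57.3% of all regions.

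Of the ETS regions present in every young EC-K4KO library, 11 of 26 (42.3%) were absent from young WT Cre, against 32.1% of all such regions. In old EC-K4KO, 15 of 91 (16.5%) were absent from old WT Cre, against 13.2% of all. Conversely, of the 64 ETS regions present in both old WT Cre libraries, 1 (1.56%) was in neither old EC-K4KO library, against 1.59% of all such regions. It lay 26659.5 bp beyond the Ets2 start, at chr16:95728953-95729179. In old WT Cre, 49 of 64 (76.6%) were absent from young WT Cre, against 64.8% of all. In old EC-K4KO, 31 of 91 (34.1%) were absent from young EC-K4KO, against 31.6%.

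**Figure D3:**
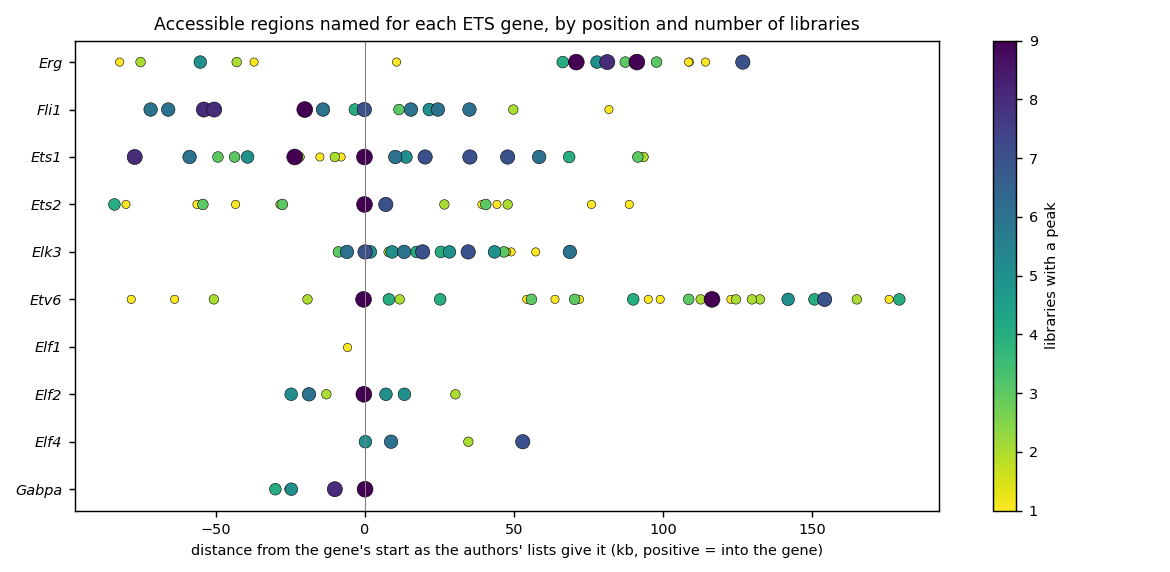
Position of the 132 regions named for the ETS genes, in kb from the start that the authors' lists use, 1 row a gene, with size and colour for the number of libraries with a peak. Regions of 8 or 9 libraries lie at the starts of Ets1, Ets2, Etv6, Elf2 and Gabpa and at distal positions of Erg, Fli1, Ets1, Etv6 and Gabpa, and the Erg promoter region lies 70894 bp into the gene from the far upstream start.

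ETS gene promoter peaks were wider than promoter peaks at large. Their median width was 576 and 594 bp in young WT Cre, 834, 737 and 866 bp in young EC-K4KO, 681 and 788 bp in old WT Cre, and 855 and 806 bp in old EC-K4KO. The medians of all promoter peaks ran from 366 to 640 bp, and the ETS median was above its own list's in all 9 libraries. Distal ETS peaks had medians of 302 to 396 bp, close to the 320 to 392 bp of all distal peaks. Elf2, with promoter peaks of 652 to 1788 bp, and Gabpa, with 867 to 1204 bp, were the widest in young WT Cre.

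The median percent rank of ETS promoter peaks was 41.9 and 39.8 in young WT Cre, 17.5, 15.2 and 9.88 in young EC-K4KO, 10.9 and 13.3 in old WT Cre, and 9.83 and 11.0 in old EC-K4KO. The median of all promoter peaks moved the same way. It was 37.7 and 33.4, then 19.5, 21.7 and 20.5, then 15.4 and 20.1, and finally 16.0 and 17.8, in the same group order. A percent rank falls when weak peaks are added to a list. The 6157 strongest peaks of each library held only 5 or 6 ETS promoter peaks. Among them the mean of the ETS medians was 48.6 in young WT Cre, 49.0 in young EC-K4KO and, at the old age, 66.9 with WT Cre and 57.6 with EC-K4KO.

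Strength was therefore compared over the 4872 regions with a peak in all 9 libraries, which include 10 ETS regions. Within each library these regions were ranked by -log10 p and the ranks turned into normal scores, in which a higher score is a stronger region, and limma was fitted over all 4872. A region in Erg intron 2 stood at percent rank 57.7 and 69.2 in young WT Cre and at 87.9, 95.5 and 96.2 in young EC-K4KO. It thus ranked lower among these common regions in every young knockout library than in either young WT Cre library. The difference was -1.20 (SE 0.235) on the score scale, with a limma adjusted p of 0.0266. In the old mice it stood at 66.8 and 61.2 in old WT Cre and at 84.4 and 82.2 in old EC-K4KO. The difference was -0.61 (SE 0.258), with a limma adjusted p of 1.00, so the region was not called. These 2 groups did not overlap, but with 2 libraries each an exact permutation test allows no p below 0.333. The share of all regions without overlap was not counted.

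The Etv6 intron 2 region stood at 55.9 and 61.5 in young WT Cre and at 87.2, 84.0 and 97.3 in young EC-K4KO. The difference was -1.13 (SE 0.278), with a limma adjusted p of 0.0481. In the old mice it stood at 52.1 and 62.8 in old WT Cre and at 65.4 and 59.8 in old EC-K4KO, and the genotypes overlapped. The genotype by age interaction was 1.00 (SE 0.412) for Etv6 and 0.59 (SE 0.349) for Erg, with limma adjusted p of 0.414 and 0.585. A fall in rank is relative to the other common regions, so it does not show a fall in accessible signal. These 2 of 10 ETS regions stand beside 4.15% of all regions called in this contrast. The Ets2 promoter region moved the other way and was not called. It stood at 73.8 and 73.4 in young WT Cre and at 59.3, 59.9 and 44.0 in young EC-K4KO. Its difference was 0.52 (SE 0.214), with a limma adjusted p of 0.175.

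These calls changed with the settings, as did the share of all regions called in this contrast. That share was 4.15% with all libraries. It was 4.93% without young EC-K4KO 1, 0.0821% without young EC-K4KO 2 and 0.534% without young EC-K4KO 3. It also fell when an old library was left out, so the loss of calls below is not particular to the ETS regions. Over 13 alternatives that keep the score scale, the Erg difference stayed between -1.38 and -1.04 and was called in 4, with limma adjusted p from 0.0127 to 0.141. The Etv6 difference stayed between -1.31 and -0.85 and was called in 2, with adjusted p from 0.0403 to 0.174. Leaving out young EC-K4KO 2, young EC-K4KO 3 or any of the 4 old libraries left 0 of the ETS regions called, and leaving out young EC-K4KO 1 left only Erg.

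The other contrasts called 0 ETS regions. For old EC-K4KO against old WT Cre, limma called 0.0% of all regions, 0 of 4872, with 189 at an unadjusted p below 0.05, 1 of them an ETS region. For old WT Cre against young WT Cre it called 6.08% and for old EC-K4KO against young EC-K4KO 6.51% of all regions. Etv6 intron 2 was higher in old than in young EC-K4KO by 1.03 (SE 0.278), with a limma adjusted p of 0.0529. The Fli1 upstream region stood at 80.0, 74.9 and 94.4 in young EC-K4KO and at 49.0 and 31.2 in old EC-K4KO, a difference of 1.29 (SE 0.360) with a limma adjusted p of 0.0596. Without young WT Cre 1 or young WT Cre 2, 3 ETS regions were called in this contrast, the Elf2 promoter and the Etv6 and Fli1 distal regions, beside 15.2% of all regions. Without young WT Cre 2, which leaves 1 library in that group and takes its spread from the other groups, 3 were called in old against young WT Cre, the promoters of Elf2 and Etv6 and the upstream region of Ets1, beside 15.8% of all regions.

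**Figure D4:**
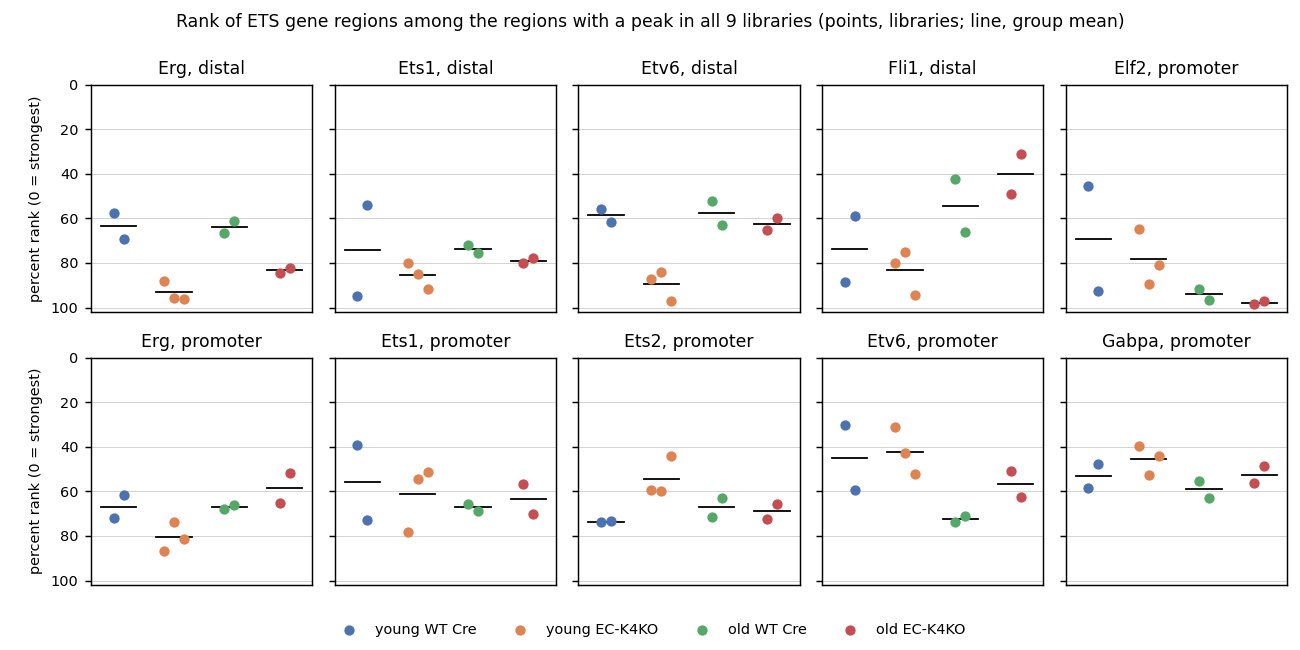
Percent rank of the 10 ETS gene regions that have a peak in all 9 libraries, among the 4872 such regions, with 0 for the strongest at the top of the axis, 1 point a library and the group mean as a line. The Erg and Etv6 distal regions sit between 84.0 and 97.3 in young EC-K4KO, below both young WT Cre points, while the promoter regions of Ets1 and Gabpa overlap between the young groups.

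Other genes of the pathway were read from fixed lists, beside shares of all genes of 23.9%, 12.6%, 49.1% and 25.2% in the 4 contrasts. Of 16 other ETS family genes, 14 had a peak, and 2, 3, 5 and 5 were higher without overlap in young EC-K4KO over young WT Cre, old EC-K4KO over old WT Cre, old over young WT Cre and old over young EC-K4KO. Etv3, a repressor, and Etv4, an activator of the PEA3 group, were the members higher in the first. Etv2, which starts endothelial development, had 0 peaks in any library, and Spi1, a myeloid factor, had at most 1. Of 11 partners, 5, 2, 7 and 5 were higher in the same order, among them Tal1, a bHLH factor, and Sox17, an arterial factor, in the first. Of 17 endothelial genes known as ETS targets, 10, 4, 17 and 13 were higher, among them Kdr, the receptor for VEGF, with 4 and 5 peaks in young WT Cre and 9, 11 and 14 in young EC-K4KO. At equal list length the target list had 0 higher and 2 lower in young EC-K4KO (Cldn5 and Notch4), beside 1.46% and 1.04% of all genes, and 0 of either in old EC-K4KO over old WT Cre. Over age it had 1 higher (Robo4) and 1 lower (Notch4) in WT Cre, beside 3.45% and 2.3%, and 2 higher (Robo4 and Cldn5) and 0 lower in EC-K4KO, beside 1.83% and 1.70%.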

How the data were processed

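Peak lists of 9 Omni-ATAC-seq libraries of mouse brain EC nuclei were used. According to the methods and labels, the authors trimmed reads, mapped them to mm10 with Bowtie2, removed duplicates and called broad peaks with MACS2 in each library alone, with no control library named. The deposited score was the authors' -log10 q times 10, written as a whole number. The deposited fold is the ratio of signal to local background. The authors' -log10 p and -log10 q, as deposited, are means over a broad peak. The authors' HOMER annotation gives a gene name by the nearest start, a class by the peak centre and a distance in bp.

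The ETS genes, the other gene lists, motifs and tests were chosen with earlier results of these data known. Peaks were counted per gene and library, merged at 1 bp into regions, and ranked by -log10 p. The text names all 10 members, their best promoter region, each distal region present in all 9 libraries and up to 3 gained or lost regions per contrast. Other Erg, Ets1, Elf4, Gabpa and Etv6 regions were named after their values were seen. Region ranks were tested with limma 3.58.1 in R 4.3.3 with all 4 groups in the fit and Benjamini-Hochberg adjustment over all 4872 regions at a threshold of 0.05. Counts used Python 3.11.15, numpy 2.4.6, pandas 2.3.3 and scipy 1.17.1. Starts and exons came from GENCODE M21, sequence from RefSeq GRCm38. Tests were tried on simulated data with planted changes. Alternatives were q limits of 0.05 and 0.01, lists of equal length, distal peaks, covered bases, other ranking, merging at 100 bp, a replicate block and leaving out each library. Peaks per 10000 of the list and counting by gene span were added after seeing the data. Same-numbered libraries had correlations of -0.01 to 0.12 between their deviations from group means, so the numbers were not taken as pairs.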

Additional observations from a re-analysis of the deposited data

How the results depend on the processing

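The count of ETS genes higher in each contrast kept its direction under q limits of 0.05 and 0.01, distal peaks only, covered bases, gene span and every left-out library. In lists of equal length it fell to 0 in both genotype contrasts and, with its direction kept, to 3 in old against young WT Cre and 1 in old against young EC-K4KO. Per 10000 peaks of the list, 6 were called in young EC-K4KO against young WT Cre, 4 of them lower, 2 in old EC-K4KO against old WT Cre, 5 in old against young WT Cre, 3 of them lower, and 3 in old against young EC-K4KO, with the shares of all genes given beside them in the comparisons.

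With the replicate block, 0 ETS regions were called in young EC-K4KO against young WT Cre, as with ranking by fold and with only the compared groups in the fit. Leaving out 1 library gave 0 to 2 there, 0 to 3 in old against young WT Cre and 0 to 3 in old against young EC-K4KO. In the last contrast, ranking by fold, percent rank and q under 0.01 each called 1 and the fit of only those groups 3. The shares of all regions called under these settings are not given here, so these counts are not a result about the ETS regions. Shares of all regions also moved when a library was left out. The block changed no other call. The cause was not tested.

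In lists of equal length, the promoter share was 49.4% for young EC-K4KO and, at the old age, 32.3% for WT Cre and 30.6% for EC-K4KO. Peaks over any annotated start gave 11.5% and 9.86% in the old groups, WT Cre first, and q under 0.01 gave 11.8% and 8.08%. Promoter width at equal length was 565 bp in young WT Cre, 935 bp in young EC-K4KO and 911.0 bp in old EC-K4KO. Distal width at equal length was 474 bp, 553 bp and 556 bp in the last 3 groups, and with q under 0.01 it was 370.3 bp, 350.5 bp and 406 bp. Median promoter percent rank over the 4 groups was 48.6, 49.0, 66.9 and 57.6 at equal length, and 44.0, 19.9, 26.6 and 29.8 when ranked by fold.

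With 2 or 3 libraries a group and unknown depth, the length of a list limits every count of peaks. The adjusted exact test over genes called 0 in every setting, and its smallest possible p left little room for a call. Without any 1 young EC-K4KO library it could not have made a call.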
